A study of Ovis aries with 10 samples.

Results

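ANGPT2, TIE1, TEK, VEGFA and AGGF1, 5 genes of blood vessel growth, were followed in the left ventricle of fetal sheep whose mothers had received cortisol or vehicle. Members were chosen by name: every probe of the array that is not a control and whose gene name, record or description is one of these genes was taken, which gave 13 of 15008 probes, for 5 of 1015 gene names on the array. A probe was tested where 5 or more of the 10 arrays showed it well above background, which held for 12 of the 13 and for 10261 probes in all. In the array's annotation ANGPT2 is written ANG-2 or angpt2, TIE1 and AGGF1 appear under locus numbers, and TEK is written tie2 or as a tie-2 receptor locus. The genes were picked after the cortisol comparison was known, so their differences between the groups are given as a description and without a p-value.

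Ewes carrying 1 fetus were infused with 1 mg/kg/day of cortisol (Solu-Cortef) or with vehicle, from about day 115 of pregnancy until tissue collection at 139 to 144 days, soon after labour had begun. Each treatment was given to 7 ewes, and left ventricular free wall from 5 fetuses per treatment was analysed, with 1 one-colour Agilent array per fetus. The infusion went to the ewe, not to the fetus, and the controls carry the vehicle infusion too. The labels call all samples 140 days. Slide 1 carried 6 of the arrays, 3 per treatment, and slide 2 carried the other 4, with 2 per treatment.

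The angiopoietins are secreted ligands of TEK (also called TIE2), a receptor tyrosine kinase of endothelial cells. ANGPT1 activates TEK and steadies the vessel wall, while ANGPT2 acts on the same receptor in a way that depends on the setting and often opposes ANGPT1. TIE1 is the sister receptor, which binds no angiopoietin well on its own and modulates TEK. VEGFA drives endothelial growth and permeability through the receptors KDR and FLT1, and in the heart much of it is made by the muscle cells. AGGF1 is a secreted angiogenic factor.

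The probes are DNA strands of 60 bases, and several lie almost on top of each other, so that their agreement shows how well a gene was measured. The pairs that bear most on the results are printed 5′ to 3′, with the bases that 2 probes of a gene share in capitals. The TIE1, ANGPT2 and VEGFA pairs share 59 bases and are shifted by 1 base, and the TEK pair shares 53 bases and is shifted by 7. The third TEK probe, which shares no stretch with them, is shown because its difference between the groups was the largest among the TEK probes.
TIE1 A_70_P002717: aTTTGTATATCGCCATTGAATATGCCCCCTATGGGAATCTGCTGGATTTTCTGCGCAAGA
TIE1 A_70_P002716: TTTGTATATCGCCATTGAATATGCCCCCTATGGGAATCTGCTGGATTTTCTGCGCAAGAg
ANGPT2 A_70_P002907: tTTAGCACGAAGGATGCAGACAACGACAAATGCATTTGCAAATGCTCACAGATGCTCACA
ANGPT2 A_70_P002906: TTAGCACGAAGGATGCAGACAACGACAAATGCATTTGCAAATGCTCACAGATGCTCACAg
VEGFA A_70_P050922: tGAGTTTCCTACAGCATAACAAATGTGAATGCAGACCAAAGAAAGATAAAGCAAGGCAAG
VEGFA A_70_P050921: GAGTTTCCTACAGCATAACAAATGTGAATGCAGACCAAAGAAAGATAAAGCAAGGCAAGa
TEK A_70_P002712: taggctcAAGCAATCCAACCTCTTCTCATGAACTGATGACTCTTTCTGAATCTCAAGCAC
TEK A_70_P002711: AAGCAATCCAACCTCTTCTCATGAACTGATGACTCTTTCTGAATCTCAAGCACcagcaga
TEK A_70_P049686: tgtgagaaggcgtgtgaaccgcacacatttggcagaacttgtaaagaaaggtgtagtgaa

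A level below is the log2 of a probe's processed intensity over the 75th percentile of its array, which lay between 177 and 286 scanner units, and a difference is the mean level with cortisol minus the mean level of controls. The share of spots well above background ranged from 63.5% to 73.2% over the arrays. With 10 arrays, their number sets the precision. In limma, 0 of 10261 probes passed a Benjamini-Hochberg adjusted p of 0.05 for cortisol against control (percent called 0), with 333 at an unadjusted p under 0.05, and 0 of the 12 member probes passed. The median difference over all tested probes was -0.00 with 48.8% of them higher. On cortisol replicate 4 an area of 8.47% of the spots had lost signal, and 0 of the 13 member probes lay in it. The free-text description of 9 samples names the biceps femoris, against the left ventricle in their title, source and tissue fields. Of the genes looked up as cardiomyocyte markers, 4 of 16 were measured. Over the 10 arrays TPM1, MB and CRYAB had mean levels of 8.88, 8.74 and 8.49, and MYH7, the slow and ventricular myosin, 5.06. Of the 12 skeletal muscle markers 6 had a probe. PYGM, the muscle glycogen phosphorylase, and TNNC2, fast troponin C, were well above background on 10 of 10 arrays, with mean levels of 2.87 and -1.06. MYOD1 was on 6, at -4.34, and MYH1, MYH2 and MYF5 on 0. Whether the genes measured here can tell ventricle from skeletal muscle was not tested.

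TIE1 was the 1 member gene with lower levels in the cortisol group. On 1 of its 2 probes that direction was lost with another background correction described further on. On probe A_70_P002716 its level on control arrays 1 to 5 was -2.43, -2.14, -2.39, -2.20 and -2.23. On cortisol arrays 1 to 5 it was -2.63, -2.98, -2.60, -2.50 and -2.98. Each of the 5 cortisol arrays was lower than each control array, the nearest being cortisol replicate 4 and control replicate 1. The group means were -2.28 ± 0.13 (SD, n = 5) and -2.74 ± 0.23 (SD, n = 5), a difference of -0.46 ± 0.13 (SE), or a mean 1.38-fold lower with cortisol.

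The sister probe A_70_P002717 gave TIE1 levels of -2.22, -2.05, -2.47, -2.40 and -2.21 on control arrays 1 to 5. On cortisol replicates 2, 3 and 5 it gave -2.76, -2.74 and -2.91. The spots of cortisol replicates 1 and 4 were flagged as not found by the scanner software, although both were well above background, and were left out. The difference was then -0.53 ± 0.13 (SE, n = 5 and 3). With these spots kept, at -2.27 and -2.60, the level of cortisol replicate 1 fell among the controls, the groups overlapped and the difference was -0.39. Groups that did not overlap in the lower direction were found for 0.478% of all tested probes. Since the cortisol comparison chose TIE1, nothing is read from that share.

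The TIE1 difference on A_70_P002716 was -0.42 on slide 1 (3 arrays per group) and -0.53 on slide 2 (2 arrays per group). On A_70_P002717 it was -0.50 and -0.61. As the groups did not overlap with flagged spots left out, the sign on each slide was fixed in advance, and nothing is read from it. The size of the TIE1 difference moved with the processing. TIE1 spots had processed intensities between 23.4 and 69.1 scanner units. With the normexp background correction, which adds an offset of 50, the differences were 0.01 for A_70_P002716 and -0.17 for A_70_P002717, and with the authors' deposited values they were -0.19 and -0.47. Normexp also started from the mean spot signal, and with it 66.7% of all tested probes were higher with cortisol, against 48.8%. The settings differ in several steps, and the part of each in the TIE1 difference was not tested.

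**Figure D1:**
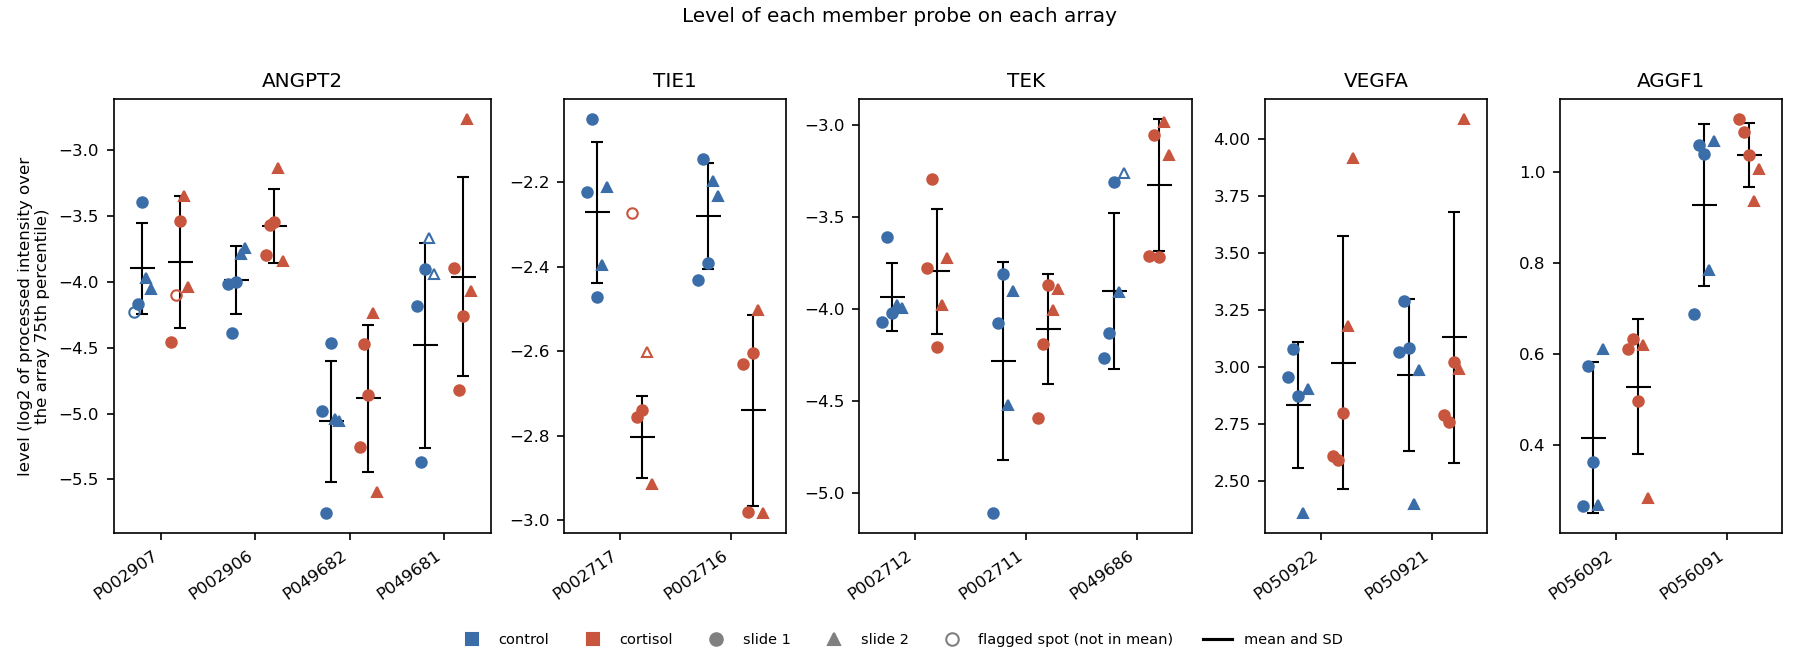
Level of each of the 13 member probes on each array (y axis, log2 of the processed intensity over the 75th percentile of the array), with 1 panel per gene on its own scale, control arrays in blue and cortisol arrays in red. Circles are slide 1, triangles slide 2, open symbols flagged spots that are not in the means, and black bars the mean and SD of 3 to 5 arrays. Both TIE1 probes are lower on the cortisol arrays that were kept (a difference that normexp brought to 0.01 and -0.17), and the open circle of cortisol replicate 1 at -2.27 lies among the controls. VEGFA is highest on cortisol replicate 5, at 3.92 and 4.09.

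TEK, the angiopoietin receptor, was measured by 3 probes, whose differences ranged from 0.14 to 0.58. On probe A_70_P049686 control arrays 1 to 4 had levels of -4.27, -4.13, -3.31 and -3.91, and control replicate 5 was flagged as not found. Cortisol arrays 1 to 5 had -3.71, -3.05, -3.72, -2.99 and -3.16. Every cortisol array was above the control mean, but control replicate 3 was above 2 of them, so the groups overlapped. The means were -3.90 ± 0.42 (SD, n = 4) and -3.33 ± 0.36 (SD, n = 5), and the difference was 0.58 ± 0.24 (SE), 1.49-fold.

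The difference on that TEK probe was 0.45 with the flagged spot kept, 0.27 with normexp and 0.32 with the authors' deposited values. On probe A_70_P002712 it was 0.14 ± 0.17 (SE), with control levels from -4.07 to -3.61 and cortisol levels from -4.20 to -3.30. On probe A_70_P002711, which was well above background on 6 of 10 arrays, it was 0.17 ± 0.25 (SE), with control levels from -5.11 to -3.81 and cortisol levels from -4.59 to -3.87. On both probes the groups overlapped over most of their range. Without control replicate 1, the lowest array on A_70_P002711, the difference of that probe was -0.03. The TEK spots were dim, with processed intensities between 7.27 and 26.9 scanner units over the 3 probes.

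ANGPT2, the ligand that modulates TEK, was likewise measured near background. On probe A_70_P002906 control arrays 1 to 5 had levels of -4.02, -4.39, -4.00, -3.79 and -3.74. Cortisol arrays 1 to 5 had -3.79, -3.57, -3.55, -3.13 and -3.84. Cortisol replicates 2, 3 and 4 lay above all controls, and replicates 1 and 5 lay below the highest control. The means were -3.99 ± 0.26 (SD, n = 5) and -3.58 ± 0.28 (SD, n = 5), a difference of 0.41 ± 0.17 (SE), 1.33-fold.

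Its near-identical partner A_70_P002907 had a difference of 0.05 ± 0.27 (SE, n = 4 and 4), with 2 of 4 cortisol arrays above the control mean. That difference was -0.22 within slide 1 and 0.32 within slide 2. On A_70_P049681, which targets another part of the transcript, controls 1 to 3 had -4.18, -5.37 and -3.90, and cortisol arrays 1 to 5 had -3.89, -4.82, -4.26, -2.76 and -4.07. Both control arrays of slide 2 were flagged there, so slide 2 gives no difference. Cortisol replicate 4 stood above the rest, the difference was 0.52 ± 0.48 (SE, n = 3 and 5), and without that array it was 0.22. Across all ways of leaving out 1 array it ranged from 0.08 to 0.81. The fourth ANGPT2 probe, A_70_P049682, was well above background on 1 of 5 control arrays and 0 of 5 cortisol arrays, so it was not tested and no fold is given.

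VEGFA, the main vascular growth factor, was bright, with processed intensities of at least 1113 scanner units on every array. On probe A_70_P050921 control arrays 1 to 5 had levels of 3.06, 3.29, 3.08, 2.40 and 2.99. Cortisol arrays 1 to 5 had 2.79, 2.76, 3.02, 2.99 and 4.09. The groups overlapped, with control replicate 4 lowest and cortisol replicate 5 highest of all 10. The means were 2.96 ± 0.34 (SD, n = 5) and 3.13 ± 0.55 (SD, n = 5), and the difference was 0.17 ± 0.26 (SE).

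The VEGFA difference had opposite signs on the 2 slides. On slide 1 it was -0.29 for A_70_P050921 and -0.30 for A_70_P050922, and on slide 2 it was 0.85 and 0.92. On slide 1 the cortisol arrays had 2.79, 2.76 and 3.02 on A_70_P050921 against at least 3.06 in controls, so all 3 lay below. On slide 2 control replicate 4 was the lowest array and cortisol replicate 5 the highest. A test of this slide difference, chosen after the values were seen, gave 1.14 ± 0.44 (SE) and 1.22 ± 0.34 (SE) for the slide 2 difference minus the slide 1 difference, both with a limma adjusted p of 0.887. In that test 0 of 10209 probes passed (percent called 0) and 521 had an unadjusted p under 0.05. Without cortisol replicate 5 the VEGFA difference was -0.07 on A_70_P050921 and -0.04 on A_70_P050922. The 75th percentile of cortisol replicate 5 was 241 scanner units and 66.7% of its spots were well above background, both inside the range of the other arrays. It had 21 spots with an outlier flag, against 0 to 8 on the others, and 500 spots flagged as not found, against 624 to 1184. The part of these in the VEGFA difference was not tested.

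AGGF1 varied little between fetuses. On probe A_70_P056091 control arrays 1 to 5 had levels of 0.69, 1.06, 1.04, 0.78 and 1.07, and cortisol arrays 1 to 5 had 1.12, 1.09, 1.04, 0.94 and 1.01. All 5 cortisol arrays lay above the control mean and inside or just above the control range. The difference was 0.11 ± 0.11 (SE). On A_70_P056092, which shares no bases with it, the difference was 0.11 ± 0.12 (SE), with controls from 0.27 to 0.61 and cortisol arrays from 0.28 to 0.63. With normexp both AGGF1 differences were slightly below 0, at -0.04 and -0.01. The SD within groups of A_70_P056091, 0.136, was above that of 8.71% of tested probes, and that of VEGFA probe A_70_P050921, 0.455, was above that of 81.3%.

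**Figure D2:**
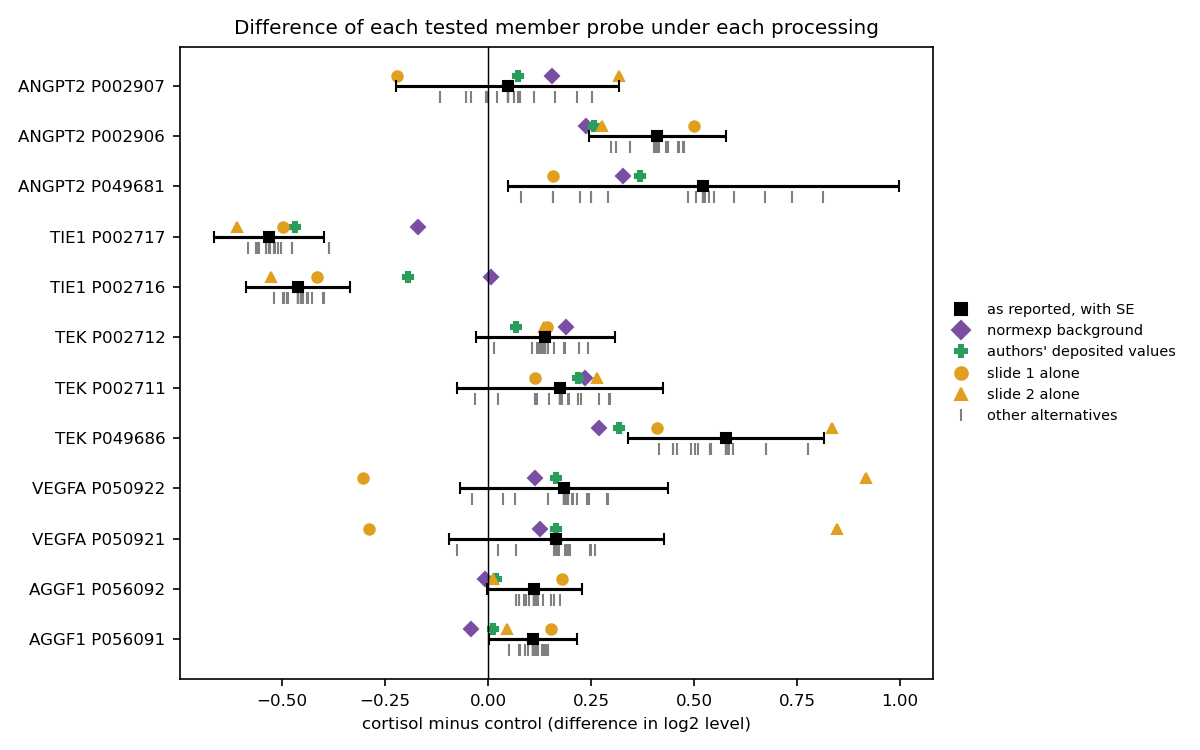
Difference in log2 level, cortisol minus control, for each of the 12 tested member probes (y axis) under each way of processing (x axis). Black squares are the reported values with their SE from limma, coloured symbols mark normexp background correction, the authors' deposited values and each slide alone, and grey ticks mark the other alternatives, such as leaving out 1 array. The TIE1 probes move toward 0 with normexp, to 0.01 and -0.17, and the VEGFA probes lie on opposite sides of 0 on the 2 slides.

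Slide, which did not choose the members, was tested with treatment as a covariate. Of 10261 probes, 0 passed the adjusted threshold for slide 2 against slide 1 (percent called 0, 934 at an unadjusted p under 0.05), and 0 of the 12 member probes did, with adjusted p-values in limma from 0.608 to 0.976. The 2 smallest belonged to ANGPT2, with slide 2 minus slide 1 at 0.26 ± 0.16 (SE) on A_70_P002906 and 0.91 ± 0.54 (SE) on A_70_P049681. For the TIE1 probes the slide difference was 0.05 ± 0.13 (SE) and -0.10 ± 0.14 (SE). In all, 8 of 12 member probes were higher on slide 2.

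Whether 2 probes of a gene ranked the fetuses alike was examined over 9 pairs, with permutation tests adjusted over the 9. The VEGFA probes agreed most, with Pearson r = 0.96 (permutation p = 0.00011, adjusted 0.00099, n = 10) and Spearman rho = 0.79 (adjusted permutation p = 0.0408). Without the 2 arrays farthest from the median r was 0.76, and in deviations from the group means it was 0.96. Both VEGFA probes put cortisol replicate 5 highest and control replicate 4 lowest.

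The TIE1 probes had r = 0.89 over the 8 arrays with both values (exact permutation p = 0.00313, adjusted 0.0141) and rho = 0.88 (exact adjusted p = 0.0408). Within groups the agreement was weaker, with r = 0.40 in deviations from the group means (exact permutation, adjusted p = 0.402), so the pooled value rests largely on the distance between the groups. With flagged spots kept, all 10 arrays gave r = 0.81. The pair did not pass with normexp (r = 0.57, exact permutation, adjusted p = 0.146) or with the authors' deposited values (r = 0.74, exact permutation, adjusted p = 0.0920). The AGGF1 probes had r = 0.70 (permutation p = 0.0158, adjusted 0.0475, n = 10) and rho = 0.68 (adjusted permutation p = 0.104). That relation rests on a few arrays, since r was 0.27 without the 2 arrays farthest from the median.

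The dim members agreed less. ANGPT2 probes A_70_P002907 and A_70_P002906, shifted by 1 base, had r = 0.50 over 8 arrays (exact permutation p = 0.219, adjusted 0.329) and rho = 0.45 (exact adjusted p = 0.420). TEK probes A_70_P002712 and A_70_P002711, shifted by 7 bases, had r = 0.04 over 10 arrays (permutation p = 0.913, adjusted 0.913) and rho = -0.24 (adjusted permutation p = 0.513). The other 4 pairs of TEK and ANGPT2 probes had r from 0.30 to 0.71, none past the adjusted threshold. Of these, A_70_P002906 with A_70_P049681 had r = 0.71 over 8 arrays (exact permutation p = 0.0508, adjusted 0.114), and r turned to -0.65 without the 2 arrays farthest from the median. With normexp r was 0.86 for the TEK pair and 0.70 for the ANGPT2 pair. Of the 9 pairs, 6 then passed the adjusted threshold in place of 3. Normexp adds an offset of 50, above the processed intensity of every TEK and ANGPT2 spot (at most 26.9 scanner units). The normexp r of these dim probes therefore cannot tell agreement between probes from array scaling that dim spots share.

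**Figure D3:**
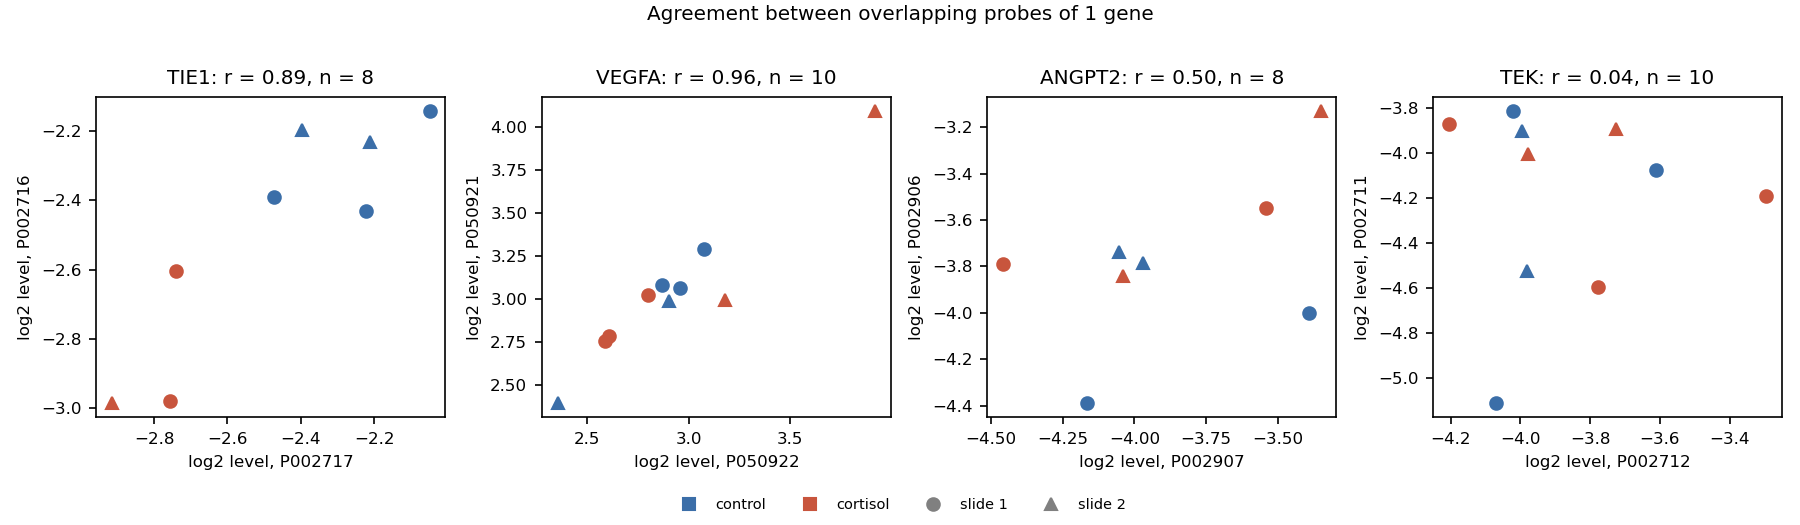
Level of 1 probe against its overlapping partner on each array (both axes log2 level), for TIE1, VEGFA, ANGPT2 and TEK, with controls in blue, cortisol in red, circles for slide 1 and triangles for slide 2. The VEGFA points follow a line (r = 0.96, n = 10), the TIE1 points fall into the 2 treatment groups (r = 0.89, n = 8), and the TEK points show no order (r = 0.04, n = 10).

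TEK and TIE1 are both made by endothelial cells. Their pooled r includes the opposite cortisol differences by which the genes had been noticed, and is a description. On the probe of highest mean level of each gene, r was -0.82 over the 7 arrays with both values (exact permutation p = 0.0325, adjusted 0.202 over 10 pairs of member genes) and rho was -0.89 (exact permutation p = 0.0123, adjusted 0.123). Without the 2 arrays farthest from the TIE1 median, r was -0.74 over 5 arrays. In deviations from the group means r was -0.69 (exact permutation, adjusted p = 0.701), and in deviations from group and slide means -0.64 (exact permutation, adjusted p = 0.688). With flagged spots kept r was -0.64 over all 10 arrays (permutation, adjusted p = 0.244), and with normexp it was -0.34. Within slide 1 r was -0.78 over 5 arrays, and slide 2 holds 2 arrays with both values, too few for one. With the mean of all tested probes of each gene in place of 1 probe, r was -0.58 (permutation, adjusted p = 0.486).

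**Figure D4:**
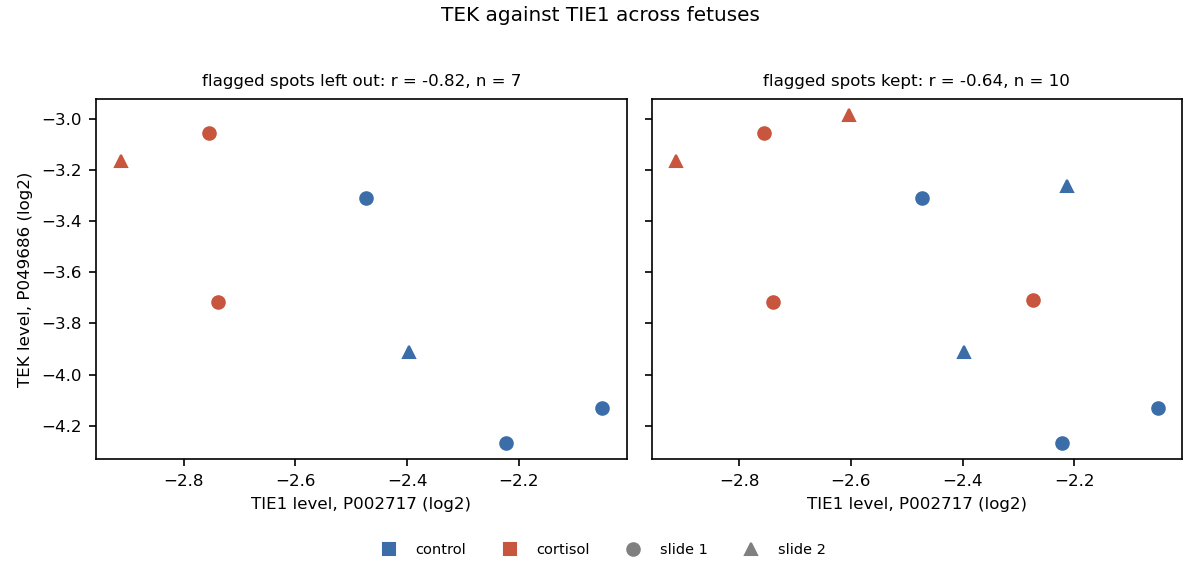
TEK level on probe A_70_P049686 (y axis, log2) against TIE1 level on probe A_70_P002717 (x axis, log2), 1 point per fetus, with flagged spots left out on the left (7 arrays) and kept on the right (10 arrays). Controls are blue, cortisol red, circles slide 1 and triangles slide 2. The value of r, which includes the group difference, is -0.82 on the left and -0.64 on the right (-0.34 with normexp), and neither passed the threshold after adjustment (exact permutation or permutation, 0.202 and 0.244).

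Of the 10 pairs of member genes, 0 passed the adjusted threshold. ANGPT2 and TEK, ligand and receptor, had r = 0.66 over 9 arrays (exact permutation p = 0.0487, adjusted 0.202) and rho = 0.62 (exact adjusted p = 0.321), and r was 0.33 without the 2 arrays farthest from the median and 0.37 in deviations from the group means. ANGPT2 and TIE1 had r = -0.68 over 8 arrays (exact permutation p = 0.0606, adjusted 0.202) and rho = -0.50 (exact adjusted p = 0.540), with -0.32 in deviations from the group means. With the mean of all tested probes of each gene, r was 0.24 for ANGPT2 with TEK and -0.18 for ANGPT2 with TIE1 (permutation, adjusted p = 0.925 for both). VEGFA had r between -0.32 and 0.21 with the other 4 members. AGGF1 had r between -0.28 and 0.46. The arrays of all pairs are the same, so these values are not independent of each other.

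The named genes whose levels were most like those of a member across arrays were taken as the 3 highest r among 582 genes, each by its probe of highest mean level. Being the highest of many, these values are a description and have no p. For VEGFA they were HSPA5, an endoplasmic reticulum chaperone, with r = 0.92 and rho = 0.88, PPARGC1A, a coactivator of mitochondrial genes, with r = 0.88 and rho = 0.84, and FLT1, a VEGF receptor, with r = 0.85 and rho = 0.75. Without the 2 arrays farthest from the VEGFA median, cortisol replicate 5 among them, r was 0.73, 0.74 and 0.76, and in deviations from group means it was 0.91, 0.88 and 0.85. The 99th percentile of r over the 582 genes was 0.80 for VEGFA and the median 0.00.

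For ANGPT2 the most alike were IFNAR2, an interferon receptor chain (r = 0.91), BMP6, a growth factor of the TGF-beta family (r = 0.79) and HR (r = 0.79), over 10 arrays. Without the 2 arrays farthest from the ANGPT2 median r was 0.88, 0.47 and 0.53. For TIE1 they were RAB9A, a GTPase of endosomal transport (r = 0.91), ODC1, an enzyme of polyamine synthesis (r = 0.84) and FGF18 (r = 0.82), over 8 arrays. In deviations from the group means these were 0.52, 0.43 and 0.86, and FGF18 was at 0.54 without the 2 farthest arrays. The lost-signal area held the ODC1 spot of cortisol replicate 4, an array not in these r because its TIE1 spot was flagged. For TEK they were LOC100191065 (r = 0.95), RPS12, a ribosomal protein gene (r = 0.88) and SLAN (r = 0.86), over 9 arrays. For AGGF1 they were RPS6, another ribosomal protein gene (r = 0.92), FGF2, a fibroblast growth factor (r = 0.83) and PPP1R12A, a subunit of myosin phosphatase (r = 0.77). Without the 2 arrays farthest from the AGGF1 median, r with FGF2 was 0.12 and with PPP1R12A 0.21.

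The rest of the pathway gave 0 genes past the threshold. In the angiopoietin and TIE list 4 of 8 genes were on the array and tested, 0 passed in either direction, and 3 of the 4 are members, already described. ANGPT1, the activating ligand, had 2 tested probes with opposite signs. Its probe of higher mean level gave a control mean of -3.49 ± 0.62 (SD, n = 4) and a cortisol mean of -3.26 ± 0.57 (SD, n = 4), a difference of 0.23 ± 0.36 (SE), while the other probe gave -0.56. Without control replicate 1 the first was at -0.02.

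In the VEGF list 6 of 10 genes were on the array and 4 were tested, 0 passed, and of the 3 besides VEGFA 2 were higher and 1 lower, with a median of 0.18 beside -0.00 over all probes. KDR, the main signalling receptor of VEGFA, had a control mean of 0.57 ± 0.17 (SD, n = 5) and a cortisol mean of 0.78 ± 0.32 (SD, n = 5), a difference of 0.22 ± 0.16 (SE), and its 4 probes gave 0.06 to 0.22. FLT1 had -1.92 ± 0.28 (SD, n = 5) and -1.74 ± 0.83 (SD, n = 5), a difference of 0.18 ± 0.35 (SE), and its 4 probes gave -0.03 to 0.18. NRP1, a coreceptor, had a difference of -0.09 ± 0.14 (SE). PGF and NRP2 were well above background on at most 1 of 10 arrays and were not tested.

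Among other angiogenic factors 8 of 16 genes were tested, 0 passed, and of the 7 besides AGGF1 4 were higher and 3 lower, with a median of 0.12. The 4 of highest level were FGF1 (-0.11 ± 0.14, SE), AGGF1, FGF2 (0.41 ± 0.17, SE) and TGFB1 (-0.31 ± 0.20, SE). Of the angiogenesis inhibitors 4 of 10 were tested and 0 passed, with a median of 0.12. They were TIMP1 at 0.06, TIMP3 at 0.16, SERPINF1 at 0.25 and TIMP2 at 0.07. Of the hypoxia genes 6 of 17 were tested and 0 passed, 3 on each side of 0, with LDHA at 0.19, SLC2A1 at -0.17, HIF1A at 0.24 and HIF3A at -0.26. The HIF1A spot was inside the lost-signal area, and with flagged spots kept its difference was -0.41. With normexp SLC2A1 and HIF3A were at 0.09 and 0.02. Of the genes of endothelial signalling 4 of 18 were tested and 0 passed, with AKT1 at -0.24 and NOS3, the endothelial nitric oxide synthase, at -0.15 (0.07 within slide 1). The Notch ligands DLL4 (-0.04) and JAG1 (0.06) changed sign under several alternatives each, among them normexp, median scaling and quantile normalization for DLL4 and the authors' deposited values and array weights for JAG1, so no direction is given for either.

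In whole tissue, fewer endothelial cells and less RNA per cell cannot be told apart. Of 22 endothelial marker genes 7 were tested, and 0 passed. The 5 besides TIE1 and TEK had higher means in the cortisol group, with a median difference of 0.22. This held under each scaling, except that ICAM1 was lower with the authors' deposited values, and FLT1 was lower within slide 1 and without cortisol replicate 5, and PECAM1 within slide 2 and without control replicate 1 or 2. PECAM1, an adhesion molecule of endothelial cells, had a difference of 0.05 ± 0.17 (SE) and EDNRB, an endothelin receptor, 0.30 ± 0.13 (SE). The mean level of the 5 markers lay between -1.10 and -0.87 on control arrays and between -1.05 and -0.38 on cortisol arrays. Summed over the 7 endothelial genes tested, the linear level relative to the array's 75th percentile lay between 7.21 and 11.5 on control arrays. On cortisol arrays it lay between 8.41 and 9.88. Flagged spots are not in the sum, which leaves out TIE1 on cortisol replicates 1 and 4 and TEK on control replicate 5. PECAM1 and KDR, with the highest mean levels (2.68 and 0.68), make up most of it, so it says little about the others. SELE and SELP, which mark activated endothelium, were well above background on 0 of 10 arrays. NOS3, of the endothelial signalling list, was at -0.15. The part of endothelial cell number in the TIE1 difference was not tested.

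Of 12 mural cell markers 2 had a probe under those names. CNN1, a smooth muscle protein, had a difference of 1.01 ± 0.51 (SE), with cortisol levels of 3.55 ± 1.23 (SD, n = 5), and 0.50 without cortisol replicate 1. MYLK had 0.32 ± 0.18 (SE). The summed level of both lay between 9.28 and 12.9 on control arrays and between 9.01 and 54.4 on cortisol arrays. Of 5 lymphatic endothelial markers 0 had a probe under those names. Of the fibroblast markers 3 of 10 were tested with a median of -0.14, of the skeletal muscle markers 3 of 12 with -0.27, of the blood and immune markers 3 of 12 with -0.00, of the fat cell markers 5 of 7 with 0.19, and of the cardiomyocyte markers 4 with -0.11, and 0 passed in each. The medians hide wide spreads. HBB was at 0.83 ± 0.87 (SE), with cortisol levels of 5.13 ± 1.82 (SD, n = 5), while CD3E was at -0.36 and CD14 at -0.00. Of the fat cell markers, LPL was at 0.19, PPARG at 0.31, PLIN1 at -0.21 and FABP4 at 0.85 ± 0.96 (SE). The part of these cell types in the member differences was not tested.

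**Figure D5:**
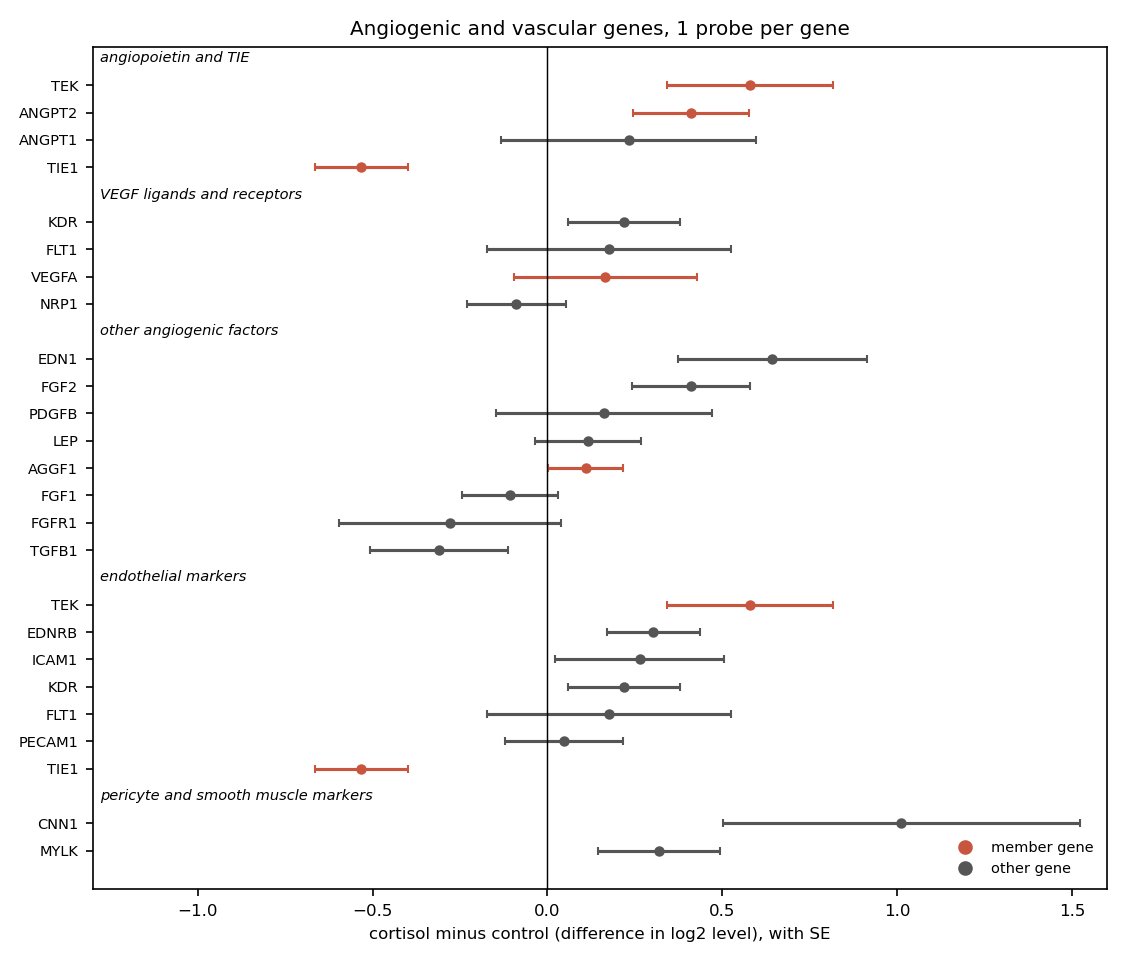
Difference in log2 level, cortisol minus control, with its SE from limma (x axis), for the tested angiogenic and vascular genes, 1 probe per gene, grouped by list (y axis). Red points are the 5 member genes and grey points the others, and genes in 2 lists appear in both. TIE1 at -0.53 (-0.17 with normexp) lies on the other side of 0 from the other 6 tested genes of the endothelial marker list. The endothelial signalling list, with NOS3 at -0.15, is not drawn. Of the genes shown, 0 passed the adjusted threshold.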

How the data were processed

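RNA of 10 fetal left ventricles was read on 10 arrays. Per the submitters' processing notes and the file headers, the spot signals come from Agilent Feature Extraction 10.1.1.1, and the deposited processed intensity was background-subtracted and detrended, not normalized between arrays. The authors' deposited value table is on a log2 scale; within each array its order equals that of median intensity minus local background, its array medians lie between 5.77 and 5.79, and genes were not centred, with its remaining steps not given in the sources used here. It was used as an alternative.

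The 536 control spots and the spots flagged as non-uniform, outlier or not found were left out. The level was log2 of the processed intensity minus the 75th percentile of the array. Probes well above background on at least 5 of 10 arrays entered a limma 3.58.1 fit under R 4.3.3 (lmFit, eBayes, two-sided, no covariate; slide test with treatment), with Benjamini-Hochberg adjustment over all tested probes. Correlations used two-sided permutation tests in Python 3.11.15 with numpy 2.4.6, exact under 10 arrays and otherwise with 100000 resamples. The code was tested on simulated data. Each array came from its own fetus, so p-values measure the spread between fetuses.

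The 5 genes and all gene lists were chosen with earlier results of these data known. Named genes were all member probes, every measured gene of the angiopoietin and VEGF lists, up to 4 genes of highest mean level of each other list, and the 3 most alike genes per member. The fibroblast markers are given by their median alone. ICAM1, SELE, SELP, MYH1, MYH2 and MYF5 were named outside that rule, after their values were seen. The test of treatment by slide was chosen after the values were seen. Names came from the files, RefSeq's gene table (assembly not matched to the files, so no coordinates) and, for older names, by hand. No protein or promoter sequences were used here.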

Additional observations from a re-analysis of the deposited data

Results flagged for a closer look

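In 22 groups of 4 or 5 arrays, 3 had 1 array far from the others by Dixon's test, which chance gives in about 1 of 20 groups. TEK probe A_70_P002712 was -3.61 on control replicate 2, against -4.07 to -3.98 on the other 4 control arrays. VEGFA probe A_70_P050922 was 2.36 on control replicate 4, against 2.87 to 3.08 on the other control arrays. VEGFA probe A_70_P050921 was 4.09 on cortisol replicate 5, against 2.76 to 3.02 on the other cortisol arrays, and the second VEGFA probe was highest on the same array. Control replicate 4 and cortisol replicate 5 both lay on slide 2.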

How the results depend on the processing

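No probe passed for cortisol against control under any of 26 alternatives, and the unadjusted count lay between 238 and 492 except with normexp (852, of which 781 higher and 71 lower, against 164 and 169). Higher against lower also moved with median scaling (202 and 129), the authors' deposited values (186 and 79), array weights (149 and 270) and without cortisol replicate 4 (169 and 300). For slide, 1 probe passed with no filter on dim probes and 0 under the other 21 alternatives. Of 306 alternative member differences, 299 moved by less than the SD within groups. The 7 others were TIE1 with normexp (0.01 and -0.17) or the authors' values (-0.19), VEGFA on slide 1 (-0.30) and slide 2 (0.92 and 0.85), and AGGF1 with normexp (-0.04). Differences that moved by less than the SD could still change sign. This was so under 6 of 25 alternatives for ANGPT2 probe A_70_P002907 (SD 0.43) and under 0 of 25 for A_70_P002906. The cause of these moves was not tested.

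Of 10 gene pairs, 1 passed with normexp (ANGPT2 and TEK, r = 0.87) and 1 with the authors' values (ANGPT2 and TIE1, r = -0.91), against 0. All ANGPT2 and TEK spots had processed intensities below the normexp offset of 50. The normexp r therefore cannot tell a relation between these genes from array scaling that dim spots share. Both r include the cortisol differences by which the genes had been noticed, and are a description. In deviations from the group means, with the main processing, they were 0.37 and -0.32 (exact permutation, adjusted p = 0.856 for both). TEK against TIE1 ranged from -0.90 to -0.34 over 20 alternatives, all below 0. Some of these could not change r. Control replicate 5 and cortisol replicates 1 and 4 already lacked a value for the pair, and no member probe lay in the lost-signal area. The alternatives also share most of their arrays, so their number is not a measure of support. Of 9 probe pairs, 3 passed, and 6 with normexp. The pairs gained with normexp were of TEK and ANGPT2 probes, which the offset limits in the same way. In deviations from group means 1 passed, and in deviations from group and slide means 1. When 1 array was left out 1 to 3 passed, with 1 without control replicate 2 or control replicate 5.

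With the replicate number as a block (replicate block) the count was 0 (394 unadjusted), and member differences ranged from -0.56 for TIE1 to 0.54 for TEK, with ANGPT2 probe A_70_P049681 at 0.16 against 0.52. The pairing was checked: the deviations of same-numbered arrays from group means correlated at -0.01 to 0.22, above 0.1 in 3 of 5 pairs. Of the control arrays, 3 of 5 correlated best with their own number. Same-numbered arrays also shared a slide, so this check cannot tell pairing from slide and does not decide it. The numbers were not taken as pairs in the main fit, and the replicate block is given as the alternative. Low signal limits ANGPT2 and TEK.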
